A study of Mus musculus with 4 samples.

Results

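Retinoid metabolism was followed through 9 mouse genes, Aldh1a1, Aldh1a2, Aldh1a3, Adh1, Adh7, Rdh10, Crabp1, Crabp2 and Rarb. Every probe set that the platform annotation pairs with exactly 1 of these symbols was taken, which gave 13 probe sets for the 9 genes, of 34945 probe sets and 18193 genes with 1 symbol on the array. The genes were chosen by a reading of earlier results on these arrays, in which the measured intensities of colonic and bone marrow cells were compared. Their values for that difference are therefore given as a description, with no test.

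MSC, mesenchymal stem cells, are stromal cells that stick to plastic and can be turned into bone, fat or cartilage cells in culture. The colonic group was 2 MSC lines from the flushed colon and the bone marrow group 2 MSC lines from bone marrow, all from C57BL/6 mice, with no treatment or altered genotype named in the labels. All lines were isolated by adherence after collagenase treatment, kept in low-glucose DMEM that held 10% serum and 10 mM HEPES, and taken at a passage between 5 and 10. Each line gave 1 Affymetrix array of amplified, biotin-labelled RNA, and the labels give no age, sex or number of animals behind a line. A passage for each line is not given either, so passage and tissue cannot be told apart. The arrays of a tissue are labelled as biological replicates, and the culture behind each array is called a line here. Whether the lines of a tissue came from separate animals, or were cultures of the same isolate, is not stated in the labels.

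Retinol (vitamin A) is turned into retinoic acid in successive oxidations. Alcohol and retinol dehydrogenases such as Adh1, Adh7 and Rdh10 make retinaldehyde, and the retinaldehyde dehydrogenases Aldh1a1, Aldh1a2 and Aldh1a3 make retinoic acid from it. The cellular retinoic acid binding proteins Crabp1 and Crabp2 carry the acid within the cell, and the retinoic acid receptors, Rarb among them, bind DNA with a retinoid X receptor and respond to it. In the gut, retinoic acid made by stromal and dendritic cells acts on lymphocytes, and aldehyde dehydrogenase activity is a common mark of stem and progenitor cells.

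Array intensities carry no absolute unit, so levels of different probe sets are not read as amounts of RNA. Words such as strong or bright describe signal only. Summed intensities of markers give most weight to the brightest probe sets. On the 4 arrays the lower quartile of all probe sets was 15.4 to 15.9, the median 53.6 to 55.5 and the upper quartile 608 to 655. An intensity near or under the lower quartile is called near the floor, which is not a statement that a transcript was absent. Differences between tissues are the mean of the colonic arrays minus the mean of the bone marrow arrays on the scale log2(intensity + 13.6). A standard error (SE) marked n = 2 per tissue comes from the spread of the 2 arrays of each tissue. An SE printed with a limma adjusted p is instead the moderated SE of the limma fit (eBayes). The SEs of these kinds are different measures and are not compared. The added 13.6 understates ratios of dim probe sets. In RNA from whole cultures, a lower signal through fewer expressing cells and through less RNA per cell cannot be told apart.

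Aldh1a1, Aldh1a3, Adh7 and Crabp1 divided the lines by tissue, with no overlap between the arrays of the tissues. The same held for 18.4% (higher in colon) and 15.1% (lower) of all 12920 genes that passed a filter on dim probe sets. The closest arrays of the tissues were 24.0-fold apart for Aldh1a3 and 27.0-fold for Adh7, against 3.37-fold for Aldh1a1 and 2.10-fold for Crabp1. Both colonic lines had strong signals for Aldh1a1 and Aldh1a3, while both bone marrow lines had strong signals for Adh7 and higher signals for Crabp1. Aldh1a2, Crabp2, Rarb and Adh1 were high or low in single lines of either tissue rather than by tissue, and Rdh10 was above the array median in all 4 lines.

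**Figure D1:**
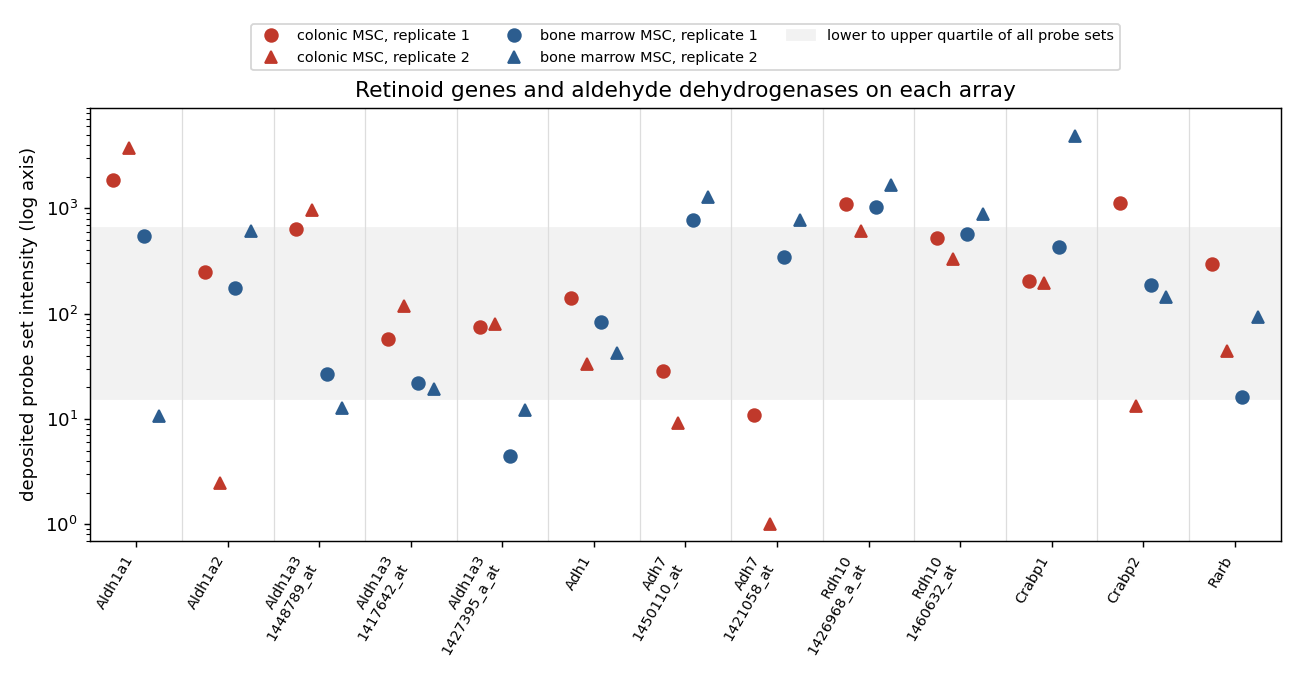
Deposited intensity (log axis) of each of the 13 probe sets on the 4 arrays, with colonic MSC in red and bone marrow MSC in blue, circles for replicate 1 and triangles for replicate 2, and a grey band for the span from the lower to the upper quartile of all probe sets. The 2 colonic arrays lie above both bone marrow arrays for Aldh1a1 and for all 3 Aldh1a3 probe sets, and below both for Adh7, Crabp1 and 1 of the Rdh10 probe sets.

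Adh7, the class IV alcohol dehydrogenase that oxidises retinol, had the widest gap between the closest arrays of the tissues toward bone marrow. Its brighter probe set, 1450110_at, had signals of 28.7 and 9.10 in the colonic lines, against 776 and 1278 in the bone marrow lines. One colonic line lay below the lower quartile of its array, and the lower bone marrow value was 27.0 times the higher colonic one. The log2 difference was -5.03 ± 0.57 (SE, n = 2 per tissue). The second probe set, 1421058_at, had 10.8 and 1.00 in the colonic lines, against 342 and 784.5 in the bone marrow lines, with a log2 difference of -4.82 ± 0.69 (SE, n = 2 per tissue). The value 1.00 recurs at other dim probe sets, as for Pecam1 in both bone marrow lines. Whether it is a set lower bound is not stated. Both probe sets placed the 4 lines in the same order.

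Adh1, the class I alcohol dehydrogenase, lies next to Adh7 among the protein-coding genes of chromosome 3 in RefSeq, and its values did not follow its neighbour's. Probe set 1416225_at had 140.05 and 33.3 in the colonic lines, against 83.3 and 42.5 in the bone marrow lines. The highest and the lowest array were both colonic, so the tissues overlapped completely, and the log2 difference was 0.20 ± 0.94 (SE, n = 2 per tissue). The promoters of these neighbours, from RefSeq on GRCm38.p6, are shown because the genes differ in pattern while sharing a chromosomal region. Each covers 250 bases before the gene start and 50 after it, on the plus strand, at chr3:138217523-138217822 for Adh7 and chr3:138277335-138277634 for Adh1. Capitals mark the letters CCAAT on either strand, a motif known to be bound by the factor NF-Y.

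Adh7: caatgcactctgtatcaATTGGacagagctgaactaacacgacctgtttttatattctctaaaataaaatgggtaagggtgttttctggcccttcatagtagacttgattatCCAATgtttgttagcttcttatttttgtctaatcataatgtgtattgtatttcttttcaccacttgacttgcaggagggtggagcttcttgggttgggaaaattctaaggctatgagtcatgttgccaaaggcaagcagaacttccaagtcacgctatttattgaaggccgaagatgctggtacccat

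Adh1: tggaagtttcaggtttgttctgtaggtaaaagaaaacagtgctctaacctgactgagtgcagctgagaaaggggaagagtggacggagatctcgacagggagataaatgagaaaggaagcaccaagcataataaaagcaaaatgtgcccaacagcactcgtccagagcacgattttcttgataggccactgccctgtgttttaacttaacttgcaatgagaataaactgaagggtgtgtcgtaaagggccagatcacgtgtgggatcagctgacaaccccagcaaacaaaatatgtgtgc

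Adh7 held the CCAAT letters at 2 places and Adh1 at 0. Of the 7 windows of these genes 3 held them at least once, those of Adh7, Aldh1a1 and Aldh1a2, against 37.4% of all 32851 RefSeq promoter windows. The windows held 3 CpG dinucleotides in Adh7 and 6 in Adh1, with a median of 7 over all windows. A match is a description of letters and not a binding site, and its absence covers only this window.

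Rdh10, the retinol dehydrogenase that is needed for retinaldehyde in the mouse embryo, was well above the median on all arrays. Probe set 1426968_a_at had 1099 and 616 in the colonic lines, against 1029 and 1652 in the bone marrow lines, and 1460632_at had 518 and 333 in the colonic lines, against 577 and 886.5 in the bone marrow lines. Both probe sets were highest in bone marrow replicate 2 and lowest in colonic replicate 2. The tissues overlapped in the brighter probe set and were just apart in the other, by a ratio of 1.11 between their closest arrays. The log2 differences were -0.66 ± 0.53 and -0.76 ± 0.43 (SE, n = 2 per tissue).

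Aldh1a1, the retinaldehyde dehydrogenase most often measured in stem cell assays, had 1852 and 3723 in the colonic lines, against 549 and 10.8 in the bone marrow lines (probe set 1416468_at). Both colonic lines were higher than both bone marrow lines, and bone marrow replicate 2 was near the floor while bone marrow replicate 1 was not. The lower colonic line was 3.37 times the higher bone marrow line. The log2 difference was 4.49 ± 2.32 (SE, n = 2 per tissue), and its size rested on bone marrow replicate 2. Without that array it was 2.23.

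Aldh1a7, the paralogue that follows Aldh1a1 on chromosome 19 and is close to it in sequence, could share signal with it on the array. It had 310 and 596 in the colonic lines, against 1508 and 814 in the bone marrow lines. Both colonic lines were lower than both bone marrow lines in Aldh1a7, and shared signal was not tested. The RefSeq promoter of the Aldh1a1 start nearer to Aldh1a7 is shown because both colonic lines were high in this gene and the bone marrow lines split, at chr19:20601718-20602017 on the plus strand, with CCAAT in capitals.

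Aldh1a1: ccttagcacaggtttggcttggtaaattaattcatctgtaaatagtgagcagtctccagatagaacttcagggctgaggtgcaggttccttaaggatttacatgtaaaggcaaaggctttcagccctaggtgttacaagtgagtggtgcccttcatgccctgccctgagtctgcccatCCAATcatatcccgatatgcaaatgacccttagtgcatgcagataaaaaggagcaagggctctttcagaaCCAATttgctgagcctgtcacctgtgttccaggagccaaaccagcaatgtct

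This window held CCAAT at 2 places and 1 CpG. The window of the other Aldh1a1 start, which is not printed, held 0 and 3. RefSeq promoter windows were at hand for 6 of the 9 genes, and those of Aldh1a3, Rdh10 and Crabp2 are not analysed here.

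Aldh1a3, a retinaldehyde dehydrogenase of embryonic eye and nose and of several epithelia, had the widest gap between the closest arrays of the tissues among the genes higher in colon. Its brightest probe set, 1448789_at, had 643 and 963 in the colonic lines, against 26.8 and 12.8 in the bone marrow lines, with a log2 difference of 4.62 ± 0.42 (SE, n = 2 per tissue). The lower colonic line was 24.0 times the higher bone marrow line. Probe set 1417642_at had 57.1 and 119.5 in the colonic lines, against 22.0 and 19.3 in the bone marrow lines, a log2 difference of 1.50 ± 0.46 (SE, n = 2 per tissue). Probe set 1427395_a_at, the only 1 of the 13 that did not pass the filter on dim probe sets (a mean on the log2 scale above the 40th percentile, about 31.9 as an intensity), had 74.8 and 80.0 in the colonic lines, against 4.43 and 12.2 in the bone marrow lines, a log2 difference of 2.07 ± 0.26 (SE, n = 2 per tissue). All 3 probe sets separated the tissues in the same direction, and they differed in size.

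Aldh1a2, the retinaldehyde dehydrogenase of embryonic mesoderm, did not divide by tissue. Its probe set 1422789_at had 250 and 2.44 in the colonic lines, against 174 and 609 in the bone marrow lines. Colonic replicate 2 was near the floor, at percentile 4.80 of its array, and the other 3 lines were well above the median. The log2 difference between tissues was -2.39 ± 2.20 (SE, n = 2 per tissue). Without colonic replicate 2 it was -0.38. Colonic replicate 2, the line lowest in Aldh1a2, was the line highest in Aldh1a1 and in the brightest Aldh1a3 probe set.

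Both binding proteins varied strongly between lines of 1 tissue. Crabp1, probe set 1448326_a_at, had 204 and 195 in the colonic lines, against 427 and 4886 in the bone marrow lines. The colonic lines were within 1.04-fold of each other, and bone marrow replicate 2 was 11.4 times bone marrow replicate 1. The log2 difference was -2.79 ± 1.74 (SE, n = 2 per tissue), or -1.05 without bone marrow replicate 2. Crabp2, which in mouse cells hands retinoic acid to its receptor, had 1135 and 13.3 in the colonic lines, against 187 and 143 in the bone marrow lines (probe set 1451191_at). Its highest and lowest arrays were the 2 colonic lines, the lower of them near the floor, and the log2 difference of -0.01 ± 2.71 (SE, n = 2 per tissue) averages these. Without colonic replicate 2 it was 2.70, and without colonic replicate 1 it was -2.72.

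Rarb, the retinoic acid receptor whose own promoter is a textbook target of retinoic acid, had 298 and 44.0 in the colonic lines, against 16.1 and 93.0 in the bone marrow lines (probe set 1454906_at). Colonic replicate 1 was highest and bone marrow replicate 1 lowest, the tissues overlapped, and the log2 difference was 1.25 ± 1.53 (SE, n = 2 per tissue). Without colonic replicate 1 it was 0.03. The Rarb promoter is shown because it carries the known response element. It lies at chr14:16575427-16575726 on GRCm38.p6, on the minus strand, and is printed 5′ to 3′ of the gene, from RefSeq, with the element in capitals.

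Rarb: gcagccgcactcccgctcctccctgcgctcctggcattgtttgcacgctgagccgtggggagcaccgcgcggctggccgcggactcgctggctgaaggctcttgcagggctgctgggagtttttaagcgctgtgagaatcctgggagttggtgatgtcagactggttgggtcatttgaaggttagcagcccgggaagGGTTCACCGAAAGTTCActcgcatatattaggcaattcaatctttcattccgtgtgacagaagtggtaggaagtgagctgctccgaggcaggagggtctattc

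The element is a direct repeat of 2 hexamers 5 bases apart, and it ends 36 bases before the gene start. The search took any pair of hexamers in the same orientation, on both strands, where a hexamer could be AGGTCA or AGTTCA, or else GGGTCA or GGTTCA. Pairs 5 bases apart were found in 1 of the 7 windows of these genes, that of Rarb, and in 0.0974% of all windows. The Rarb match was known before the search, and the hexamers searched include those of its element. The share over these genes is therefore not compared with that over all windows. Pairs 1 and 2 bases apart were found in 0 of the 7 windows, against 0.222% and 0.268% of all windows. The Rarb window held no other match to the motifs searched.

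**Figure D2:**
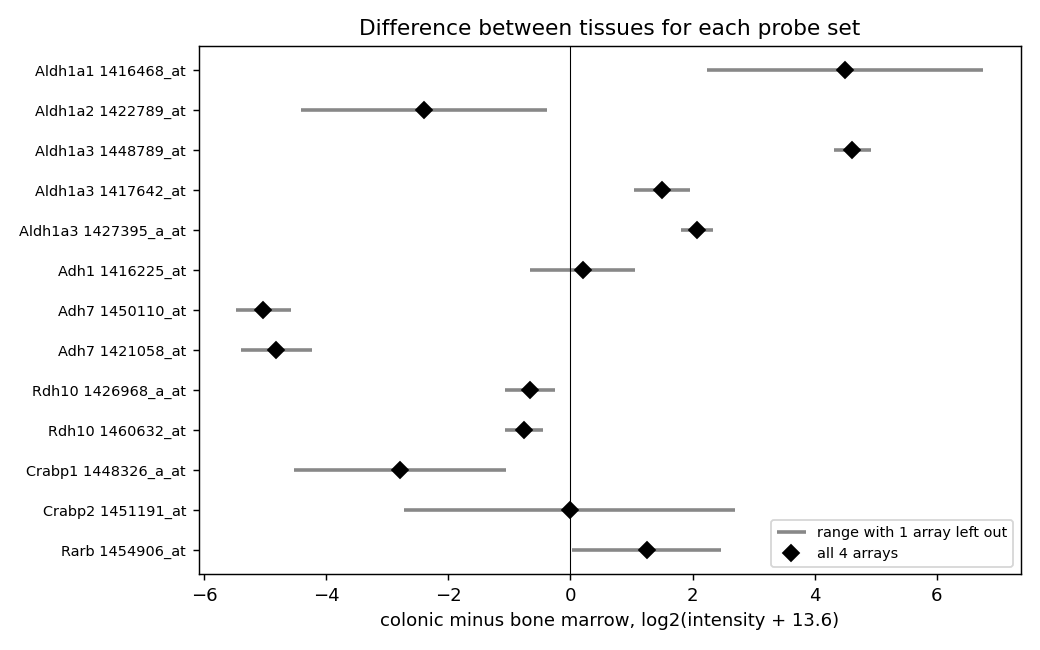
Difference between colonic and bone marrow MSC on the log2(intensity + 13.6) scale (x axis) for each of the 13 probe sets (rows), with diamonds for all 4 arrays and bars for the range when 1 array at a time is left out. The bars of Aldh1a3 and Adh7 are short and lie on 1 side of 0, those of Aldh1a1, Aldh1a2, Crabp1, Crabp2 and Rarb are long, and those of Adh1 and Crabp2 cross 0.

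Of the 12 probe sets that passed the filter, 7 had no overlap between tissues, 3 higher and 4 lower in the colonic lines. The same held for 33.6% of all 23138 named probe sets that passed, 18.4% higher and 15.3% lower. A log2 difference of at least 1 in size was found in 8 of the 12, 4 in each direction, and in 7.68% of all named probe sets that passed, 4.62% higher and 3.06% lower. Since this contrast was known when the genes were chosen, these shares are printed beside each other without being compared. The median log2 difference over the 12 probe sets was -0.33, and over all probe sets that passed it was 0.01.

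Lines of the same tissue lay far apart for many of these genes. With the brightest probe set for each gene, the 2 arrays of at least 1 tissue were 2 or more log2 units apart in 5 of the 9 genes, against 6.39% of all 12920 genes that passed the filter. For the colonic lines these were Aldh1a2, Crabp2 and Rarb (4.04, 5.41 and 2.44 log2 units apart), against 3.85% of genes. For the bone marrow lines they were Aldh1a1 and Crabp1 (4.53 and 3.47 log2 units apart), against 3.38% of genes. Aldh1a3, Adh7 and Rdh10 stayed within 0.90 log2 units inside both tissues. The same 4 arrays were in view when the genes were chosen, so these counts are also a description.

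**Figure D3:**
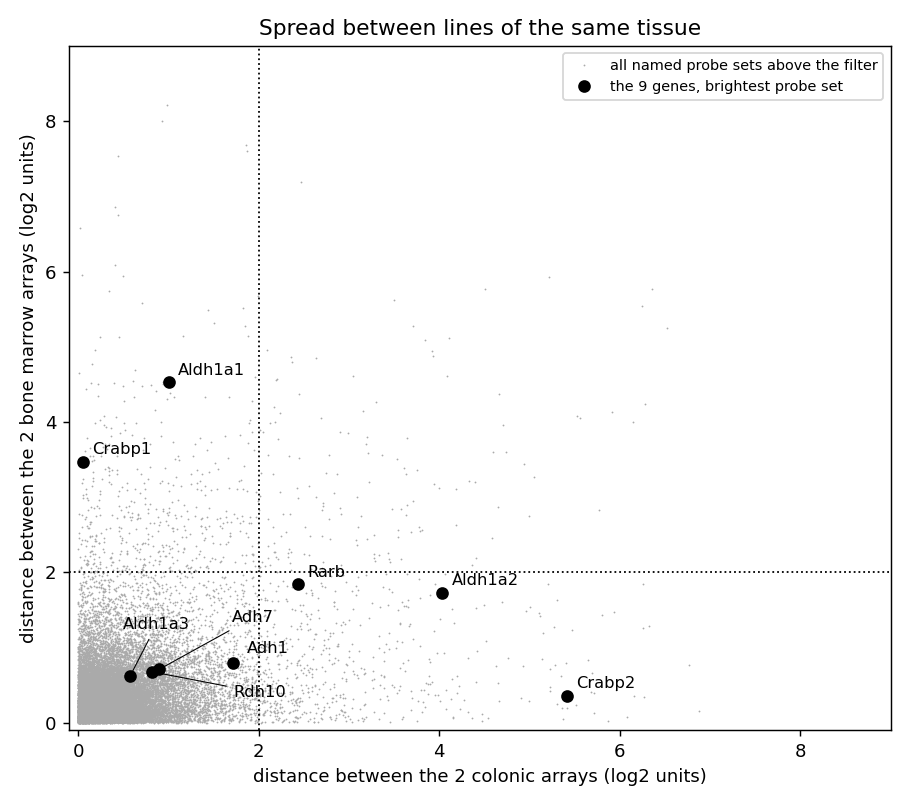
Distance between the 2 colonic arrays (x axis) and between the 2 bone marrow arrays (y axis), in log2 units, for the brightest probe set of each of the 9 genes (black) and for all named probe sets above the filter (grey), with dotted lines at 2 log2 units. Crabp2 and Aldh1a2 lie far right, Aldh1a1 and Crabp1 lie high, and Aldh1a3, Adh7 and Rdh10 lie in the dense corner.

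Read by line, colonic replicate 1 held the highest value of Adh1, Crabp2 and Rarb, and 8 of the 9 genes were above the median of that array. Colonic replicate 2 was highest in Aldh1a1 and Aldh1a3 and lowest in Aldh1a2, Adh1, Adh7, Rdh10, Crabp1 and Crabp2, with 4 of the 9 above the median. Bone marrow replicate 1 held the highest value of 0 genes and the lowest of Rarb. Bone marrow replicate 2 was highest in Aldh1a2, Adh7, Rdh10 and Crabp1 and lowest in Aldh1a1 and Aldh1a3.

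For each of the 7 genes whose brightest probe set spanned at least 2 log2 units, the genes with the most similar profile over the 4 arrays were found by Euclidean distance between centred log2 values. With only 4 arrays such lists describe shape and nothing more. Closest to Aldh1a3 were the homeobox gene Hoxb3 (distance 0.17), Asb2 (0.30) and Sprr1a (0.55), all high in both colonic lines. Hoxb3 stood at 622 and 883 in the colonic lines, against 20.0 and 11.7 in the bone marrow lines. Closest to Adh7 were Adgrg2 (0.41), Ndnf (0.47) and Evi2a (0.60), and Ndnf, a secreted factor gene, stood at 56.7 and 10.4 in the colonic lines, against 993 and 1569 in the bone marrow lines. Closest to Aldh1a1 was Ptn, the growth factor pleiotrophin, with 1099 and 4226 in the colonic lines, against 691 and 22.6 in the bone marrow lines (distance 1.00). Hdgfl3 was closest to Aldh1a2 (0.81), P3h2 to Crabp1 (0.41), the semaphorin gene Sema7a to Crabp2 (0.43) and Arrdc4 to Rarb (0.38).

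The other genes of retinoid handling and the other aldehyde dehydrogenases were taken as 6 lists by role, with 90 genes, of which 80 had a probe set with 1 symbol and 60 passed the filter. With limma over all 12920 genes, 0 of the 60 passed an adjusted p of 0.05 (Benjamini-Hochberg), and 0% of all genes did. At an unadjusted p below 0.05, 4 were higher and 3 lower in the colonic lines, against 3.3% and 2.7% of all genes. Tissues did not overlap in 7 higher and 13 lower genes of the 60, against 18.4% and 15.1% of all genes. The median log2 difference was -0.02 over the 60 and 0.01 over all genes.

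Among 13 oxidoreductases that passed the filter, 0 passed the test, and the median log2 difference was -0.06. Dhrs3, the reductase that turns retinaldehyde back to retinol, had 911 and 454 in the colonic lines, against 2887 and 1950 in the bone marrow lines. Both colonic lines were lower, with a log2 difference of -1.86 ± 0.45 (SE, limma adjusted p = 0.549). Adh5, the class III enzyme found in most cells, was at 6018 ± 79.2 in the colonic lines, against 6211 ± 104 in the bone marrow lines (SD, n = 2 each). Rdh11 was at 1332 ± 168 in the colonic lines, against 1188 ± 23.3 in the bone marrow lines, and Rdh5 at 147 ± 53.8 in colonic and 173 ± 120.01 in bone marrow lines (SD, n = 2 each).

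Of 8 genes of uptake, transport, storage and binding that passed the filter, 0 passed the test (median -0.35). Fabp5, a fatty acid binding protein that also binds retinoic acid, was at 6266 and 7616 in the colonic lines, against 10852 and 9476 in the bone marrow lines, a log2 difference of -0.55 ± 0.15 (SE, limma adjusted p = 0.618). The retinol carrier gene Rbp4 had 38.9 and 31.8 in the colonic lines, against 44.5 and 69.8 in the bone marrow lines. Both colonic lines were lower, with a log2 difference of -0.51 ± 0.29 (SE, limma adjusted p = 0.965). The retinol uptake receptor gene Stra6 stood between 29.2 and 75.8, and its tissues overlapped. Lrat, which stores retinol as ester, was below the lower quartile in all 4 lines, at most 12.2. Dhrs9 is not analysed here. Of the retinoic acid hydroxylases, which break the acid down, Cyp26b1 had 115 and 48.8 in the colonic lines, against 634 and 135 in the bone marrow lines, a log2 difference of -1.79 ± 0.84 (SE, limma adjusted p = 0.928). Cyp26a1 stood between 59.5 and 76.5 in all lines.

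Among 12 receptors and cofactors, 0 passed the test, and the median log2 difference was -0.01. Rarg, the receptor gamma, had 138 and 228 in the colonic lines, against 362 and 294 in the bone marrow lines, a log2 difference of -0.83 ± 0.40 (SE, limma adjusted p = 0.939), and its other probe set gave 0.04. Rara stood between 35.3 and 45.6 in all lines. The partner receptors Rxra and Rxrb were bright in every line, at 1519 ± 362 and 2040 ± 378 in the colonic lines, against 1415 ± 224 and 2058 ± 71.6 in the bone marrow lines (SD, n = 2 each). Rxrg was near the median of the arrays, between 48.1 and 57.3, and Ppard had 513 ± 115 in the colonic lines, against 431 ± 42.7 in the bone marrow lines (SD, n = 2 each).

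Of 10 genes known to respond to retinoic acid that passed the filter, 0 passed the test, and the median log2 difference was 0.62. Positive differences were found in 8 and negative in 2 of them, against 6648 and 6270 of all 12920 genes, and in 29 and 31 of the 60 genes of all lists. The count depends on how the lists were drawn up, since no gene was put in several lists and genes of other roles can respond too. Rarb (log2 difference 1.25) is not in it, nor are Dhrs3 (-1.86), Cyp26b1 (-1.79), Stra6 (-0.45) and Cyp26a1 (-0.07). No lean of responsive genes toward colon is read from it. The homeobox genes Meis2 and Meis1, named after their values were seen, had log2 differences of 2.24 ± 0.28 and 1.81 ± 0.27 (SE, limma adjusted p = 0.143 and 0.223). Meis2 stood at 3320 and 4399.8 in the colonic lines, against 889 and 713 in the bone marrow lines, and all of its probe sets were at least 1.59 higher in colon on the log2 scale. Meis1 had a probe set with a log2 difference of -0.03. Tgm2, transglutaminase 2, had 14019.5 and 11295 in the colonic lines, against 5436 and 1882 in the bone marrow lines, a log2 difference of 1.97 ± 0.53 (SE, limma adjusted p = 0.623), with other probe sets between 0.45 and 3.39. Ret, also named after its values were seen, went the other way, with 105 and 154 in the colonic lines, against 860.1 and 235 in the bone marrow lines. Rarres2 stood between 57.4 and 82.8 in all lines. These genes respond to other signals as well.

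Among 15 other aldehyde dehydrogenases that passed the filter, 0 passed the test, with a median of 0.10. Aldh1a7 had a log2 difference of -1.34 ± 0.51 (SE, limma adjusted p = 0.841). Mitochondrial Aldh2, which clears acetaldehyde, was at 2932 ± 958 in the colonic lines, against 3658 ± 692 in the bone marrow lines (SD, n = 2 each). Aldh3a2, which oxidises fatty aldehydes, was at 2055 ± 287 in colonic and 1561 ± 576 in bone marrow lines, and Aldh9a1 at 3112 ± 845 in colonic and 3788 ± 303 in bone marrow lines (SD, n = 2 each). Aldh1b1 reached 107 in colonic replicate 1 and stood between 22.9 and 31.95 elsewhere. Aldh3a1 did not pass the filter and had 9.36 and 9.08 in the colonic lines, against 33.99 and 30.7 in the bone marrow lines. Named after their values were seen, Aldh7a1 and the folate enzyme Aldh1l2 had log2 differences of 0.89 ± 0.27 and -1.49 ± 0.62 (SE, limma adjusted p = 0.676 and 0.867).

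**Figure D4:**
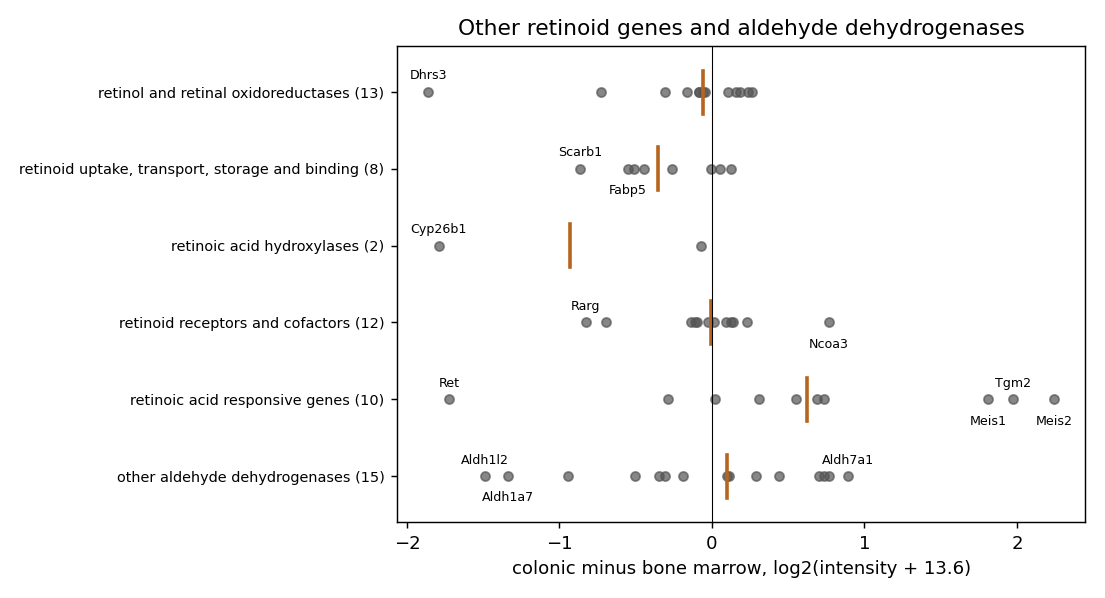
Difference between colonic and bone marrow MSC on the log2(intensity + 13.6) scale (x axis) for the genes of the 6 lists that passed the filter (dots, 1 per gene, with the number of genes in brackets) and the median of each list (bars). Most genes lie within 1 log2 unit of 0, with Meis2, Tgm2 and Meis1 farthest toward colon and Dhrs3, Cyp26b1 and Ret farthest toward bone marrow, and 0 passed the test.

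Of 13 measured markers of stromal cells all passed the filter, and 13 and 12 were above the array median in the colonic lines, against 12 and 11 in the bone marrow lines, with a summed intensity of 78159 to 86190.24 in the colonic lines and 74279 to 82954 in the bone marrow lines. Thy1 (CD90), a surface marker used to define MSC, had 4516 and 9032 in the colonic lines, against 32.8 and 22.0 in the bone marrow lines, both below the array median. Nt5e (CD73), another such marker, had 209 and 27.6 in the colonic lines, against 76.3 and 27.9 in the bone marrow lines. Pdgfra had 492 and 743 in the colonic lines, against 1609 and 2493 in the bone marrow lines, and Prrx1 stood at 278 in colonic replicate 2 and between 6022 and 8707 in the other lines. Macrophage and dendritic markers passed the filter in 6 of 12 genes, with summed intensities of 1855 and 1620 in the colonic lines, against 2933 and 1186 in the bone marrow lines, and Ptprc (CD45) stood between 19.3 and 28.6. Cd14 stood between 573 and 963 and Csf1r between 148 and 324, and Lyz2 had 150.1 and 590.5 in the colonic lines, against 1589 and 31.7 in the bone marrow lines. Mesothelial markers passed in 3 of 9 genes, with summed intensities of 2279 and 259 in the colonic lines, against 6405 and 5332 in the bone marrow lines. Krt19 made up most of the bone marrow sums, and Msln stood between 23.2 and 29.6 everywhere. Like Aldh1a2, the keratins Krt8, Krt18 and Krt19 and also Gpm6a were lowest in colonic replicate 2, while Upk3b, Wt1 and Muc16 were lowest in bone marrow replicate 1, Lrrn4 in bone marrow replicate 2 and Msln in colonic replicate 1. Upk3b, Lrrn4 and Wt1, all under the filter, were highest in colonic replicate 1, at 60.6, 36.1 and 51.3. Krt18, Gpm6a and Muc16 were also highest there, at 124.7, 29.0 and 24.7. Krt19 and Msln were highest in bone marrow replicate 1, at 6223 and 29.6, and Krt8 in bone marrow replicate 2, at 44.7.

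Intestinal epithelial markers passed in 4 of 10 genes, and Epcam, under the filter, stood between 8.97 and 19.6. Of those that passed, Lgals4 had 42.0 and 74.1 in the colonic lines, against 115 and 116 in the bone marrow lines. Cdh1 stood between 30.0 and 44.8 and Slc26a3 between 37.5 and 48.6. Krt20 was at 889 in colonic replicate 1 alone, the line with the highest Crabp2 and Rarb. Enteric glia and neuron markers passed in 1 of 5, Uchl1, at 814 in that same line and between 87.0 and 100.3 in the others. Endothelial markers passed in 3 of 7 and adipocyte markers in 1 of 4, with summed intensities of at most 278 and 126 on any array. The part of such cells in the values of Aldh1a2, Crabp2 and Rarb was not tested.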

How the data were processed

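RNA of 4 MSC lines was measured on Affymetrix mouse arrays. The values that the authors deposited look like linear intensities, 1 per probe set, since they hold decimals and range widely without a negative one. Neither summary, background nor scaling steps are stated, that is, not given in the sources used here. Precision is limited by the number of arrays. From the 45101 probe sets, 64 controls were left out, 34945 had 1 symbol in the platform annotation, 932 several and 9160 none.

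Values were taken as log2(intensity + 13.6), the added value being 0.25 of the median of the deposited intensities. The filter kept probe sets whose mean of these log2 values was above the 40th percentile (31.9 as an intensity). For tests, the brightest probe set stood for its gene, which left 12920 genes. Strong signal in a single tissue was enough to pass. limma 3.58.1 in R 4.3.3 (lmFit, eBayes with trend, 2 residual degrees of freedom) compared colonic minus bone marrow, two-sided, with Benjamini-Hochberg adjustment over all genes, and was tested on simulated data. An exact permutation of 2 against 2 arrays cannot give a p below 0.333, so none is printed. Each p-value sets a difference between tissues against the spread between these lines, moderated by eBayes with the spread of other genes. It does not extend beyond these lines.

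The genes, lists and tests were chosen with earlier results of these data known. From the lists, genes were named by their role, and others are marked where they stand. Motifs were searched in RefSeq promoter windows (GRCm38.p6). Alternatives changed the scaling (quantile, median), the added value (1, table median), the filter (none, 60th percentile), the summary per gene (mean) and the variance prior (no trend, robust), added the replicate number as a block, or left out 1 array.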

Additional observations from a re-analysis of the deposited data

How the results depend on the processing

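The count of all genes past an adjusted p of 0.05 with limma, 0 with a lowest adjusted p of 0.0502 and 775 at an unadjusted p below 0.05, was at the edge of the threshold. Quantile normalization gave 13 genes, centring on the median 17, an added value of 1 gave 15, the stricter filter (60th percentile) 15, averaging the probe sets of a gene 12, eBayes with no trend 13 and robust eBayes 15. Leaving out 1 array gave between 0 and 33, the 33 without colonic replicate 1. That fit takes the single remaining line to be as variable as the pair from the other tissue. The count over the 60 genes of the lists stayed at 0 under all of these alternatives. The number of probe sets of the 9 genes without overlap, 7 of 12, was 8 of 13 without a filter and 5 of 8 with the filter at the 60th percentile. With each array left out it was between 8 and 11 of 12, as fewer arrays leave fewer ways to overlap. The share over all probe sets was not computed at these settings, so the rise is not read as a result about these genes. The log2 difference of Adh1, 0.20, was between -0.65 and 1.06 with each array left out, and that of Crabp2, -0.01, between -2.72 and 2.70, and 0.38 with the table median added. The differences of the other 11 probe sets kept their sign. Near the floor the added value sets the size, as for the dimmer Adh7 probe set with -6.74 at an added value of 1 and -3.26 at the table median. With the replicate number as a block, 0 genes passed, and 0 of the lists. The labels number the replicates and do not say that arrays with the same number are paired. The correlation between tissues of replicate 1 minus replicate 2 was 0.11 across 12920 genes. With 2 pairs only, this value cannot decide whether they are paired. Few arrays and signals near the floor limit all of these values.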
